A study of Homo sapiens with 4 samples.

Results

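The AP-1 and MYC immediate early genes examined here were 10 transcription factor genes: FOS, FOSL1, FOSL2, JUN, JUNB, JUND, ATF3, EGR1, MYC and IER2. They were chosen by name from a table of 28198 genes, and all 10 were found in it. The rule names the genes and uses no expression value, but it was written with earlier results of these data known. The table came from polysome profiling of MDA-MB-231 cells, a human triple-negative breast cancer cell line. In this assay a sucrose gradient sorts mRNAs by how many ribosomes are bound to them. The question was which mRNAs move between ribosome-poor and ribosome-rich fractions when METTL3, the catalytic subunit of the m6A RNA methyltransferase, carries K177Q, a substitution that mimics acetylation.

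In all cells the endogenous METTL3 had been depleted with a short hairpin RNA and replaced from a lentivirus, with either wild-type METTL3 (WT-METTL3) or the acetylation mimic (K177Q-METTL3). From each of the 2 genotypes, the gradient was pooled into a sub-polysome fraction, which holds free ribosomal subunits and single ribosomes, and a polysome fraction. There were 4 libraries, 1 per condition, all of replicate 2. Other replicates were not analysed here. No value therefore has a replicate error, no difference between conditions was tested, and differences are described by size only. The cells of all 4 libraries received 100 µg/mL cycloheximide for 5 min before lysis. Cycloheximide, which holds ribosomes on the mRNA, is also known to raise mRNAs of this gene class, and no library without it was analysed here.

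Immediate early genes are transcribed within minutes of a growth factor or stress signal, without new protein synthesis. FOS and JUN family proteins pair through leucine zippers to form AP-1, which binds the sequence TGACTCA, and MYC pairs with MAX to bind E-boxes. Many of these mRNAs are short-lived, in part through AU-rich elements in the 3′ UTR. In mesenchymal-like breast cancer cells, FOSL1 is the FOS family member best known for driving invasion.

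All values are in FPKM (fragments scaled by transcript length and by library size), which is per length, so that levels can be set beside each other between genes. FPKM is relative to each library, so a shift common to every mRNA of one library is not visible. The FPKM of all genes summed to 899550 in the WT-METTL3 sub-polysome library and 818984 in the WT-METTL3 polysome library. The K177Q-METTL3 sums were 1037590 in the sub-polysome library and 767949 in the polysome library. The depth in reads is unknown because the file gives no counts. The libraries are of bulk RNA, in which fewer cells of a type and less RNA per cell cannot be told apart.

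The markers of the line were checked first. All 6 genes listed as high in MDA-MB-231 cells were detected in every library, led by S100A4 at 3061 to 3457 FPKM, and 5 of the 6 lay higher in both fractions of K177Q-METTL3 cells, beside 25.5% of all genes. With each library brought to an equal sum of FPKM (TPM), 2 of the 6 did, beside 16.3%. Of 8 luminal breast markers, ESR1, PGR and FOXA1 were at or near 0 in all libraries, while KRT19, an epithelial keratin, lay between 548 and 1415 FPKM. In all, 4 of the 8 averaged 1 FPKM or more, among them EPCAM at 6.20 to 9.91 FPKM and GATA3 at 2.83 to 4.95 FPKM. ERBB3 of this list was past 1.5-fold in the ratio compared below, with 3.27 and 2.52 FPKM in sub-polysomes and polysomes of WT-METTL3 cells and 4.27 and 1.97 FPKM in K177Q-METTL3 cells. It was not in TPM or with a pseudocount of 1 FPKM, and 6.52% of genes averaging 2 to 10 FPKM were lower by that fold. Of 6 markers of other cell types, CD3E and COL2A1 were at 0 and PTPRC did not pass 0.0515 FPKM. PECAM1, an endothelial marker, was at 1.13 and 0.537 FPKM in sub-polysomes and polysomes of WT-METTL3 cells and at 1.81 and 0.753 FPKM in K177Q-METTL3 cells. CD68, a lysosomal protein used as a macrophage marker, was at 49.0 and 77.4 FPKM in the sub-polysome and polysome libraries of WT-METTL3 cells and at 71.8 and 102 FPKM in those of K177Q-METTL3 cells. It took nearly all of the summed FPKM of that list, which was 50.2 and 78.0 in WT-METTL3 and 73.6 and 103 in K177Q-METTL3 cells. CD68 and PECAM1 thus lay higher in the K177Q-METTL3 library of each fraction, as did most of the immediate early genes below, and their part in those values was not tested. METTL3 itself was at 9.39 FPKM in sub-polysomes and 38.7 FPKM in polysomes of WT-METTL3 cells, and at 5.07 and 29.5 FPKM in K177Q-METTL3 cells. The libraries of the 2 genotypes therefore also differed in METTL3 mRNA, which was lower in both fractions of K177Q-METTL3 cells. This difference was not tested, and endogenous and lentiviral METTL3 mRNA were not told apart.

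Some promoter and 3′ UTR sequences of the members are shown first. In the promoters of RefSeq (GRCh38.p14, 250 bases before to 50 bases after each start), 8 of the 10 genes matched, with 9 promoters, and FOSL1 and MYC were not searched. EGR1 was the 1 gene of these 8 whose promoter window held a CArG box, the binding sequence of serum response factor (SRF), written CC, then 6 bases of A or T, then GG, and searched on both strands. The box occurred in 1.29% of 35116 promoters. EGR1 had 2 of them, which began 105 and 83 bases before the start site. The stretch chr5:138465349-138465418, on the plus strand, holds both in capitals. JUND held TGACGTCA, the cyclic AMP response element that ATF proteins bind, 200 bases before its start site, and 1.85% of promoters held it. The JUND stretch, chr19:18281808-18281837 on the minus strand, also holds a GC box (GGGCGG on either strand, present in 44.95% of promoters), and both are in capitals. FOS, at chr14:75278783-75278812, and JUNB, at chr19:12791441-12791470, both on the plus strand, had TATAAA in capitals 33 and 31 bases before the start, a sequence found in 11.5% of promoters. ATF3 was the third of the 8 genes with TATAAA, 230 bases before a start.
EGR1: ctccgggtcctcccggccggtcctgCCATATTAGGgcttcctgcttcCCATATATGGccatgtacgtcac
JUND: gcgcggCCGCCCccaTGACGTCAacccaca
FOS: taaaacgcttgtTATAAAagcagtggctgc
JUNB: gctgactagcgcggTATAAAggcgtgtggc
TGACTCA, the AP-1 sequence, was found in the FOSL2 window alone among these 8 genes, just after the start site, and in 4.95% of all promoters. These are matches of letters, the files hold no measure of binding, and a window without a match says nothing of sequence further out.

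The AU-rich pentamer ATTTA was counted in the 3′ UTR of the canonical GENCODE 44 transcripts. It was present in 9 of the 10 members, against 70.9% of 10304 coding genes compared. FOSL2 had 9 copies, MYC 6, FOS 5, JUN 3, ATF3 3, JUNB 2, and FOSL1, JUND and EGR1 1 each, and IER2 had 0. Per kilobase of 3′ UTR the members held 2.13 copies and all coding genes 2.24. The short windows below show 2 overlapping copies of the 5 in FOS, 2 neighbouring copies of the 9 in FOSL2 and the lone copy of JUND, with ATTTA in capitals. The other copies of FOS and FOSL2 lie outside these windows. They span bases 633 to 662 after the stop codon in FOS, 3900 to 3929 in FOSL2 and 414 to 443 in JUND.
FOS: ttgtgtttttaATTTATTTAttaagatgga
FOSL2: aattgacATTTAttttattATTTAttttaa
JUND: tcgattctgccctATTTAtgtttctactcg

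The genes covered a wide range of levels, led by JUND and FOSL1. JUND had a mean of 1017 FPKM over the 4 libraries and ranked 141st of 28198 genes. FOSL1 followed at 285 FPKM, IER2 at 151, JUNB at 92.4, JUN at 47.5, FOSL2 at 38.4 and MYC at 27.9 FPKM. ATF3 at 5.24, EGR1 at 3.72 and FOS at 1.27 FPKM were far lower, and FOS ranked 10464th. JUN and FOSL2, with means 1.24-fold apart, were the closest neighbours, and their order was the same in each of the 4 libraries. With no replicate, no neighbours in this order can be said to differ beyond their spread.

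**Figure D1:**
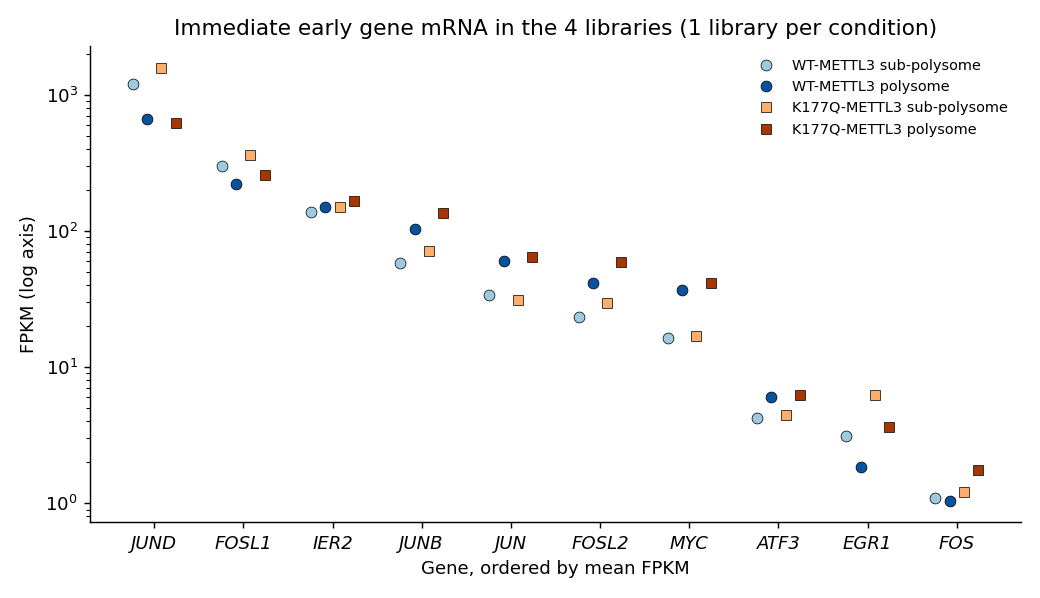
FPKM of the 10 genes (log axis), ordered by mean, with 1 point per library: circles are WT-METTL3 and squares K177Q-METTL3, pale for sub-polysome and dark for polysome. JUND lies between 618 and 1587 FPKM and FOS between 1.05 and 1.75 FPKM. The dark points lie above the pale ones in FOSL2, JUN, JUNB, MYC and ATF3 and below them in JUND and FOSL1. In EGR1 the dark point lies below the pale one within each genotype.

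The ratio of polysome to sub-polysome FPKM, called translation efficiency in this study, was computed on the log2 scale after adding 0.1 FPKM. It compares the 2 fractions of 1 genotype and says nothing of how many ribosomes each mRNA carries. The 10905 genes that averaged 1 FPKM or more over the libraries were compared, which included all 10 members. In WT-METTL3 cells, 4 members were at least 1.5-fold higher in polysomes (28.1% of all genes compared) and 2 at least 1.5-fold lower (19.1%). In K177Q-METTL3 cells the same 4 were higher (30.2%) and the same 2 lower (21.3%). The members' median log2 ratio was 0.33 in WT-METTL3 and 0.49 in K177Q-METTL3 cells, beside 0.14 and 0.16 over all genes compared. The genes higher in polysomes were MYC, FOSL2, JUNB and JUN, and those lower were JUND and EGR1. As a check of the fractions, NEAT1, a nuclear noncoding RNA, was at 16.04 and 5.98 FPKM in WT-METTL3 and 10.1 and 4.53 FPKM in K177Q-METTL3 cells. MALAT1, another, was closer to even, at 1.69 and 1.22 FPKM in WT-METTL3 and 1.06 and 0.968 FPKM in K177Q-METTL3 cells. ACTB, the most abundant coding gene of the check, was at 8538 and 10167 FPKM and at 9361 and 10750 FPKM.

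**Figure D2:**
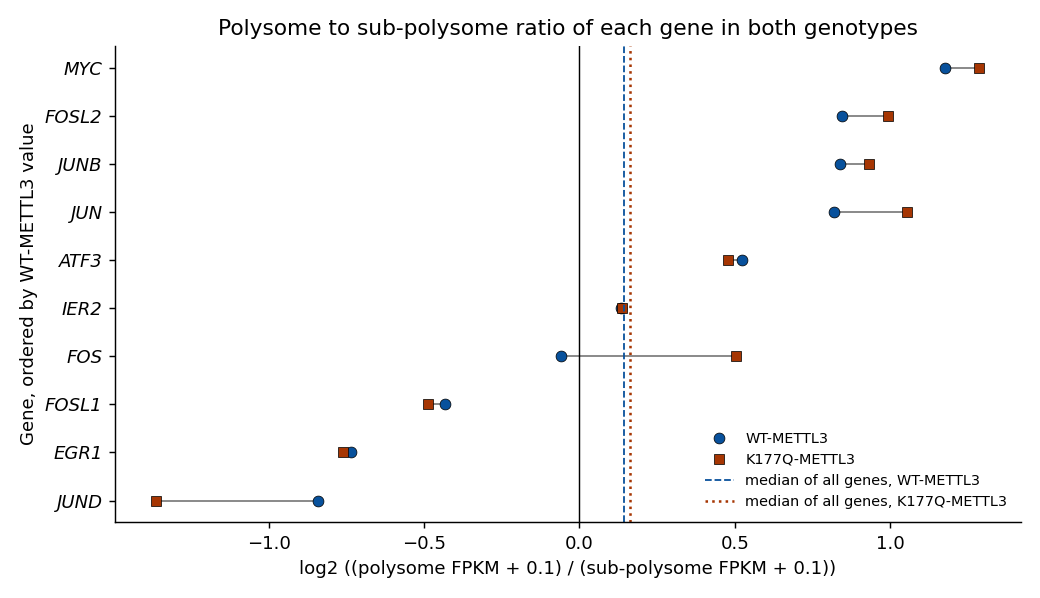
Log2 polysome to sub-polysome ratio of each gene in WT-METTL3 (circles) and K177Q-METTL3 cells (squares), 1 library per point of the ratio, with the median of all 10905 genes as dashed and dotted lines. MYC is highest at 1.18 and 1.29, JUND lowest at -0.84 and -1.36, and FOS alone lies on opposite sides of 0.

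The JUN family split in opposite directions. JUN, the partner that gives AP-1 most of its activating strength, was at 34.2 FPKM in sub-polysomes and 60.3 FPKM in polysomes of WT-METTL3 cells, and at 31.1 and 64.7 FPKM in K177Q-METTL3 cells. Its polysome value was 1.76-fold the sub-polysome value in WT-METTL3 and 2.08-fold in K177Q-METTL3 cells. JUNB, a weaker activator that can restrain JUN, was at 58.1 and 104 FPKM in WT-METTL3 and 71.4 and 136 FPKM in K177Q-METTL3 cells. The JUNB ratio was 1.79-fold and 1.91-fold, close to that of JUN, with the polysome library the higher of each pair. JUND, the family member with steady expression in most cells, went the other way. It was at 1195 FPKM in sub-polysomes and 667 FPKM in polysomes of WT-METTL3 cells, and at 1587 and 618 FPKM in K177Q-METTL3 cells. JUND was thus 1.79-fold lower in polysomes in WT-METTL3 cells and 2.57-fold lower in K177Q-METTL3 cells. Because of this split, the make-up of the JUN family depended on the fraction: JUND made up 92.8% of the summed FPKM of the 3 genes in the WT-METTL3 sub-polysome library and 80.3% in the polysome library. In K177Q-METTL3 cells these shares were 93.9% and 75.4%. JUNB made up 4.51% of the family in sub-polysomes and 12.5% in polysomes of WT-METTL3 cells, and 4.23% and 16.7% in K177Q-METTL3 cells.

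The 3 JUN genes are alike in structure, and this was set beside their ratios. JUN (ENSG00000177606.9) lies at chr1:58776845-58784048 on the minus strand of GRCh38, JUNB (ENSG00000171223.6) at chr19:12791486-12793315 on the plus strand and JUND (ENSG00000130522.6) at chr19:18279694-18281622 on the minus strand. Each consists of 1 exon, as 1.84% of coding genes compared do, and their coding lengths are 993, 1041 and 1041 nucleotides. JUNB overlaps HOOK2 on the opposite strand, which did not pass 10.8 FPKM in any library, against at least 58.1 FPKM for JUNB. The libraries were made with strand kept, but whether the quantification used it was not given in the sources used here. Among the 1560 genes with a coding length of 900 to 1200 nucleotides, the median log2 ratio was 0.24 in WT-METTL3 and 0.19 in K177Q-METTL3 cells. JUN at 0.82 and JUNB at 0.84 in WT-METTL3 cells lay between that median and the 90th percentile, 1.18, while JUND at -0.84 lay under the 10th percentile, -0.79. In K177Q-METTL3 cells JUND at -1.36 was further under the 10th percentile, -0.88. Base composition differed within the family: the coding GC content was 64.4% in JUN, 67.8% in JUNB and 73.3% in JUND, and that of the 5′ UTR 65.0%, 74.5% and 89.9%. A 5′ UTR GC content as high as that of JUND was found in 0.291% of genes, and a coding GC content as high in 0.660%. Among the 175 genes of this length with a coding GC content of at least 64.3%, the median log2 ratio was -0.15 in K177Q-METTL3 cells and the 10th percentile -1.08. In WT-METTL3 cells that percentile was -0.82, and JUND lay under it in both genotypes. Most of these genes have a lower GC content than JUND, the 5′ UTR was not matched, and the part of base composition in the JUND value was not tested.

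The FOS family was dominated by FOSL1. FOSL1 (FRA-1; ENSG00000175592.9, chr11:65892049-65900573, minus strand, 4 exons), which lacks the transactivation domain of FOS, was at 299.9 and 222 FPKM in the sub-polysome and polysome libraries of WT-METTL3 cells. In K177Q-METTL3 cells it was at 362 and 258 FPKM, again with the sub-polysome library the higher. FOSL1 was 1.35-fold lower in polysomes in WT-METTL3 and 1.403-fold lower in K177Q-METTL3 cells, which did not reach 1.5-fold. FOSL2 (FRA-2; ENSG00000075426.12, chr2:28392448-28417317, plus strand, 4 exons) was at 23.2 and 41.7 FPKM in WT-METTL3 cells and at 29.6 and 59.0 FPKM in K177Q-METTL3 cells. It was 1.79-fold and 1.99-fold higher in polysomes, and so opposite to FOSL1. Of the summed FPKM of FOS, FOSB, FOSL1 and FOSL2, FOSL1 made up 92.4% in the WT-METTL3 sub-polysome and 83.8% in the polysome library, and 92.1% and 80.9% in K177Q-METTL3 cells. FOSL2 made up 7.14% and 15.7% in WT-METTL3 and 7.54% and 18.5% in K177Q-METTL3 cells. In FPKM as deposited, the abundant member of each family, FOSL1 or JUND, thus lay towards sub-polysomes, and a less abundant one towards polysomes. In TPM the log2 ratio of FOSL1 was -0.30 in WT-METTL3 and -0.05 in K177Q-METTL3 cells, and that of JUND -0.71 and -0.93. FOS (ENSG00000170345.10, chr14:75278826-75282230, plus strand, 4 exons), the founding member and the classical serum-response gene, was at 1.10 and 1.05 FPKM in WT-METTL3 cells and at 1.20 and 1.75 FPKM in K177Q-METTL3 cells. FOS made up at most 0.549% of the family FPKM, in the K177Q-METTL3 polysome library. The polysome to sub-polysome ratio of FOS was 0.960-fold in WT-METTL3 and 1.42-fold in K177Q-METTL3 cells, the widest gap between the genotypes among the 10 genes. With 1 FPKM added in place of 0.1, the gap of FOS was 0.35 on the log2 scale and that of JUND, -0.52, was wider.

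MYC, which lies on chromosome 8 and has 3 exons, was at 16.3 and 37.1 FPKM in the sub-polysome and polysome libraries of WT-METTL3 cells and at 16.9 and 41.3 FPKM in K177Q-METTL3 cells. Its polysome value was 2.26-fold the sub-polysome value in WT-METTL3 and 2.44-fold in K177Q-METTL3 cells, the highest of the 10 genes. The WT-METTL3 ratio of MYC lay at the 91.6th percentile of all genes compared. CASC11, on the opposite strand of the MYC locus, did not pass 0.671 FPKM. EGR1 (ENSG00000120738.8, chr5:138465479-138469303, plus strand, 2 exons), a zinc finger factor induced by ERK signalling through SRF, was at 3.14 and 1.85 FPKM in WT-METTL3 cells and at 6.23 and 3.64 FPKM in K177Q-METTL3 cells. It was 1.66-fold and 1.69-fold lower in polysomes, nearly the same in both genotypes. ATF3 (ENSG00000162772.18, chr1:212565334-212620777, plus strand, 4 exons), a stress-induced bZIP factor that often represses, was at 4.20 and 6.07 FPKM in WT-METTL3 cells and at 4.45 and 6.24 FPKM in K177Q-METTL3 cells. Its polysome value was 1.44-fold and 1.39-fold the sub-polysome value. IER2 (ENSG00000160888.7, chr19:13150411-13154911, plus strand, 2 exons), a small protein found in the nucleus, was at 138 and 151 FPKM in WT-METTL3 and 151 and 166 FPKM in K177Q-METTL3 cells. The IER2 ratio was 1.10-fold in both genotypes, the smallest distance of the 10 genes from an even split in K177Q-METTL3 cells.

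The ratio of the 2 translation efficiencies, K177Q-METTL3 to WT-METTL3, did not reach 1.5-fold for any of the 10 genes in either direction, against 4.08% of all genes compared that were higher and 7.03% that were lower. The members' median was 0.05 on the log2 scale and that of all genes -0.01. FOS was 1.48-fold higher and JUND 1.43-fold lower, and the log2 value of the other 8 lay between -0.06 for FOSL1 and 0.24 for JUN. FOS belongs to the 1415 genes averaging 1 to 2 FPKM, of which 13.4% were higher by 1.5-fold or more and 13.2% lower. JUND belongs to the 1175 genes of at least 100 FPKM, of which 0 were higher and 11.0% were lower by that fold, with a median of -0.26. In FPKM as deposited, the JUND value thus had the same sign as the median of these abundant mRNAs. In TPM the JUND value was -0.22 on the log2 scale, beside a median of 0.29 over all genes. The median of the abundant mRNAs was not computed in TPM.

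Between genotypes within 1 fraction, most of these genes lay somewhat higher in K177Q-METTL3 cells. In polysomes, 9 of 10 were higher in K177Q-METTL3 cells (46.2% of all genes compared), JUND being the exception at -0.11 on the log2 scale. In sub-polysomes 9 of 10 were higher (49.4%), JUN being the exception at -0.14. Their median log2 difference was 0.18 in polysomes and 0.20 in sub-polysomes, beside -0.02 and -0.004 over all genes compared. In both fractions, 8 of 10 members were higher, as were 25.5% of all genes. These directions depend on the scale for the sub-polysome libraries: in TPM, the all-gene median moved to -0.21 in sub-polysomes and 0.07 in polysomes, and 5 of 10 members were then above 0 in sub-polysomes (24.1% of genes), 9 of 10 in polysomes (60.8%) and 4 of 10 in both (16.3%). FOS, ATF3, MYC and IER2 turned below 0 in sub-polysomes in TPM, where JUN stayed below. Relative to the median of all genes, which a rescaling of whole libraries leaves nearly fixed, the members' median was 0.21 higher in both fractions. In TPM, the translation efficiency ratios of FOSL1, ATF3 and EGR1, slightly below 0 in FPKM, were 0.24, 0.25 and 0.27, beside an all-gene median of 0.29.

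**Figure D3:**
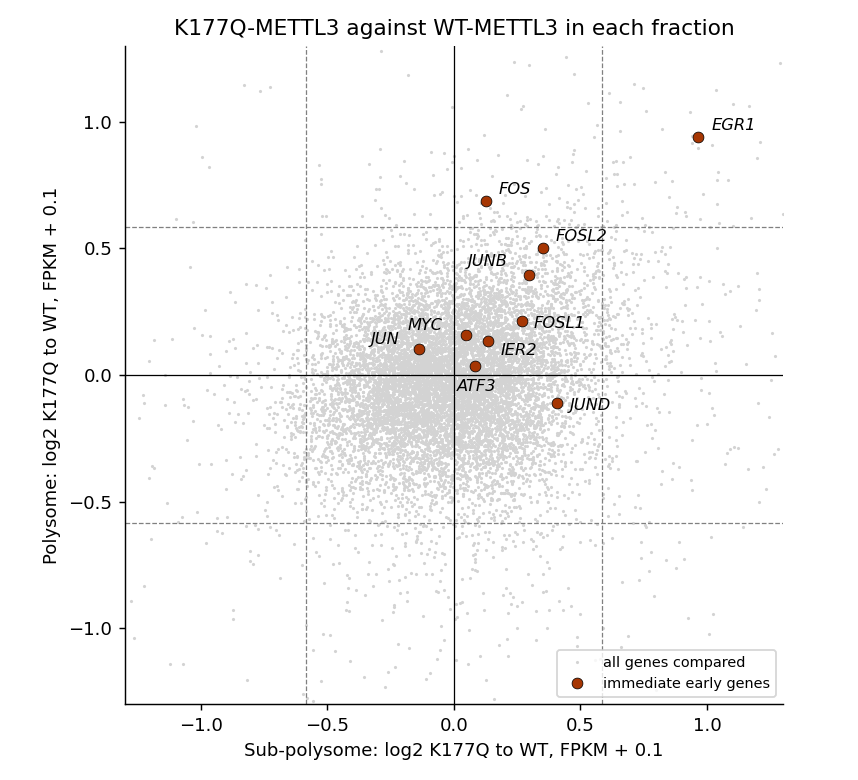
Log2 difference K177Q-METTL3 to WT-METTL3 in polysomes (vertical) against sub-polysomes (horizontal), FPKM as deposited plus 0.1, with all genes compared in grey, 125 of them outside the axes, the 10 genes in colour and dashed lines at 1.5-fold. EGR1 alone lies past both dashed lines, at 0.97 and 0.94, FOS passes the polysome line, and JUND and JUN lie in opposite quadrants.

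At 1.5-fold, 2 members, EGR1 and FOS, were higher in polysomes (2.13% of all genes compared) and 0 lower (3.13%). In sub-polysomes, EGR1 alone was higher (4.01%) and 0 were lower (2.94%). EGR1 was 1.95-fold higher in sub-polysomes and 1.92-fold higher in polysomes, and 79 genes, 0.724%, were at least 1.5-fold higher in both. Among the 4111 genes averaging 2 to 10 FPKM, to which EGR1 belongs, that share was 0.754%. FOS was 1.61-fold higher in polysomes and 1.09-fold in sub-polysomes, and 6.93% of genes at its level were at least 1.5-fold higher in polysomes. With 1 FPKM added in place of 0.1, the polysome difference of FOS was 0.43 on the log2 scale, under 1.5-fold. Of the genes with more signal, FOSL2 was 1.28-fold higher in sub-polysomes and 1.41-fold in polysomes, and JUNB 1.23-fold and 1.31-fold. JUND was 1.33-fold higher in sub-polysomes and 1.08-fold lower in polysomes. FOSL1 was higher by 0.27 on the log2 scale in sub-polysomes and 0.21 in polysomes. MYC, ATF3, JUN and IER2 had log2 values from -0.14 to 0.16 in the 2 fractions.

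The rest of the class was examined in lists of related genes drawn from background knowledge, also with earlier results known. The list of other immediate early genes shares 1 gene with that of other bZIP genes and 3 with that of AU-rich element binding, and the AP-1 targets share 2 with the markers of the line. Of 40 other immediate early genes, 32 averaged 1 FPKM or more, and 24 of these were higher in both fractions of K177Q-METTL3 cells (75.0%, beside 25.5% of all genes compared). In TPM, 15 of the 32 were (46.9%, beside 16.3%). Their median log2 difference was 0.22 in polysomes and 0.19 in sub-polysomes, and 0 of 32 reached 1.5-fold in translation efficiency in either direction. IER3, a target of NF-kappaB and ERK signalling and the most abundant of them, was at 3499 and 3691 FPKM in the sub-polysome and polysome libraries of WT-METTL3 cells and at 4609 and 4235 FPKM in K177Q-METTL3 cells. Of 16 known AP-1 target genes, 12 were compared, and 10 of these were higher in both fractions (83.3%, beside 25.5% of all genes compared). In TPM, 9 of the 12 were (75.0%, beside 16.3%). The median log2 difference of the targets was 0.32 in polysomes and 0.36 in sub-polysomes, beside -0.02 and -0.004 over all genes compared. HMGA1, a chromatin protein and the most abundant AP-1 target of the list, was at 3327 and 1366 FPKM in WT-METTL3 cells and 3909 and 1576 FPKM in K177Q-METTL3 cells. MMP9, a matrix metalloprotease with AP-1 sites in its promoter, was the 1 listed target of 12 past 1.5-fold in translation efficiency, and at its level, 1 to 2 FPKM, 13.4% of all genes were higher by that fold. It was at 1.17 and 1.72 FPKM in WT-METTL3 and at 1.10 and 3.05 FPKM in K177Q-METTL3 cells.

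The targets and partners of MYC were examined in the same way. Of 19 MYC targets compared, of 20 listed, 0 were higher in both fractions and 10 were lower in both (52.6%, beside 29.8% of all genes compared). In TPM, 13 of 19 were lower in both (68.4%, beside 31.3%). Their median log2 difference was -0.13 in polysomes and -0.08 in sub-polysomes, and 0 of 19 passed 1.5-fold in translation efficiency. PTMA, the most abundant, was at 1203 and 729 FPKM in WT-METTL3 cells and at 1200 and 739 FPKM in K177Q-METTL3 cells. MYC itself was 1.11-fold higher in polysomes, and 2 of its 19 listed targets were higher in that fraction (46.2% of all genes compared). In TPM, 6 of 19 were, beside 60.8%. Of 15 genes of the MAX and MLX network, 10 were compared, 1 was higher in both fractions and 2 lower in both (25.5% and 29.8% of all genes compared; 0 and 3 in TPM), and none passed 1.5-fold in translation efficiency. MXD3, an antagonist of MYC that pairs with MAX and the most abundant of the network, was at 56.7 and 80.6 FPKM in WT-METTL3 and 63.8 and 69.5 FPKM in K177Q-METTL3 cells.

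**Figure D4:**
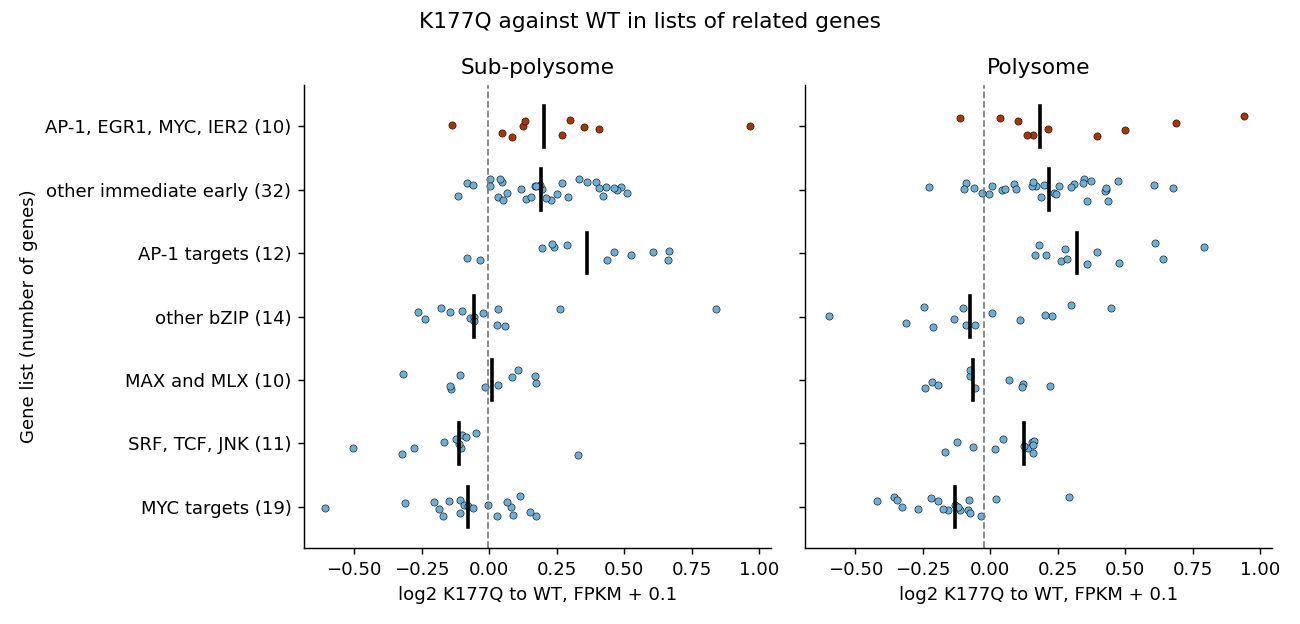
Log2 difference K177Q-METTL3 to WT-METTL3 for each compared gene of 7 lists, in sub-polysomes (left) and polysomes (right), FPKM as deposited plus 0.1, with black bars at list medians and dashed lines at the median of all genes compared. The 10 members, the 32 other immediate early genes and the 12 AP-1 targets have medians between 0.18 and 0.36, and the MYC targets have medians of -0.08 and -0.13.

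Among 14 other bZIP genes compared, of 19 listed, 3 were higher in both fractions and 6 lower in both, shares of 21.4% and 42.9% beside 25.5% and 29.8% of all genes. In TPM, 2 of 15 were higher in both and 6 lower in both, beside 16.3% and 31.3%. NFE2L1, a stress factor that can pair with small MAF proteins and the most abundant of them, was at 37.6 and 66.0 FPKM in WT-METTL3 and 38.4 and 90.04 FPKM in K177Q-METTL3 cells. BATF, an AP-1 factor best known from lymphocytes, was the 1 gene of this list past 1.5-fold in translation efficiency in FPKM, lower by 0.73 on the log2 scale. It was at 6.68 and 2.23 FPKM in WT-METTL3 and 12.0 and 2.42 FPKM in K177Q-METTL3 cells. In TPM its translation efficiency ratio was -0.43, under 1.5-fold. Of genes averaging 2 to 10 FPKM, as BATF does, 6.52% were lower by that fold. The regulators upstream (SRF, its ternary complex factors and myocardin-related cofactors, the JNK pathway, and the coactivators CREBBP and EP300) held 11 compared genes of 13 listed, of which 8 were higher in polysomes (46.2% of all genes) and 1 in sub-polysomes (49.4%). In TPM, 9 were higher in polysomes (60.8%) and 1 in sub-polysomes (24.1%). MAP2K7, a kinase that phosphorylates JNK and the most abundant, was at 33.9 and 44.4 FPKM in WT-METTL3 and 32.0 and 48.4 FPKM in K177Q-METTL3 cells. ELK4, a ternary complex factor, was past 1.5-fold in translation efficiency at 0.64 on the log2 scale, with 2.73 and 1.89 FPKM in WT-METTL3 and 1.90 and 2.097 FPKM in K177Q-METTL3 cells. With 1 FPKM added, ELK4 was at 0.46, under 1.5-fold, and 5.28% of genes averaging 2 to 10 FPKM were higher by that fold. All 13 genes listed for binding AU-rich elements or for turnover of MYC and JUN protein were compared, with 4 higher in both fractions and 5 lower in both, shares of 30.8% and 38.5%. In TPM, 2 were higher in both (15.4%, beside 16.3%) and 6 lower in both. HNRNPD (AUF1), which binds AU-rich elements in immediate early mRNAs, was the most abundant, at 113 and 263 FPKM in WT-METTL3 and 81.3 and 234 FPKM in K177Q-METTL3 cells. USP28, a deubiquitinase that stabilises MYC and JUN proteins, was past 1.5-fold at 0.59, with 3.09 and 2.48 FPKM in WT-METTL3 and 2.73 and 3.35 FPKM in K177Q-METTL3 cells. It was under 1.5-fold with 1 FPKM added (0.45) and with median-of-ratios size factors (0.57). USP28 also belongs to the genes averaging 2 to 10 FPKM, of which 5.28% were higher by that fold.

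The genes whose pattern over the 4 libraries was most like the median profile of the 10 were TGFBI, PODXL and ANKRD37. Likeness was the Euclidean distance between log2 values centred on each gene's own mean, among genes averaging 10 FPKM or more, and the distances were 0.054, 0.065 and 0.069. TGFBI, an extracellular matrix protein, was at 20.1 and 25.6 FPKM in WT-METTL3 and 21.6 and 30.6 FPKM in K177Q-METTL3 cells. PODXL, a sialomucin of the cell surface, was at 12.5 and 15.8 FPKM in WT-METTL3 and 13.9 and 19.0 FPKM in K177Q-METTL3 cells. ANKRD37 was at 10.1 and 12.7 FPKM in WT-METTL3 and 10.5 and 15.0 FPKM in K177Q-METTL3 cells. The 10 members were themselves further from this median profile than these genes: of 5372 candidates, between 161, for ATF3, and 4827, for JUND, lay nearer to it.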

How the data were processed

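Poly(A)-selected, strand-directional libraries of sub-polysome and polysome RNA were sequenced on an Illumina NovaSeq6000. The authors deposited 1 table of FPKM per gene, used here as given. The submitters' processing notes list STAR 2.7, StringTie 2.1.5 and hg38, without saying which step each served. The table has 4 more columns with values that could be tied to no sample given here, and they were left out. Whether they hold another replicate of the same conditions is not known. The labels call all 4 libraries used replicate 2, and statements on missing replicate error hold for these 4 alone. The table holds no counts, so the number of fragments behind a low FPKM value is unknown.

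From FPKM, log2 ratios between libraries were computed with 0.1 added to each value, for genes averaging 1 FPKM or more, and genes were counted at 1.5-fold, the fold the study uses. With 1 library per condition, no test was made. The calculation was run on simulated data with planted 2-fold changes and little noise. That run checks the arithmetic and says nothing of the error of these libraries. Alternatives were other pseudocounts, filters, a 2-fold threshold, TPM, median-of-ratios size factors and centred ratios. The counts of genes higher or lower in both fractions under other scalings, and the alternatives for named genes other than the members, were added after seeing the data.

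The members and the gene lists were chosen with earlier results of these data known. The genes named are the 10 members, METTL3, and in each list the most abundant gene and up to 3 in each direction with the largest change in translation efficiency past 1.5-fold. They also include the 3 genes averaging 10 FPKM or more that lay nearest to the members' median profile. ESR1, PGR, FOXA1, CD3E, EPCAM, GATA3, COL2A1, PTPRC, PECAM1 and MALAT1 are named as markers, and HOOK2 and CASC11 as overlapping genes. Gene positions, lengths and 3′ UTRs are those of GENCODE 44 on GRCh38, and promoters those of RefSeq. A coding length was found for 94.5% of genes compared. Calculations ran in Python 3.11.15 (numpy 2.4.6, pandas 2.3.3, matplotlib 3.10.9).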

Additional observations from a re-analysis of the deposited data

Results flagged for a closer look

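The polysome to sub-polysome ratio of 5 named genes had opposite signs in the genotypes, which were not tested against each other since there was 1 library per condition. FOS went from -0.06 in WT-METTL3 to 0.50 in K177Q-METTL3 cells on the log2 scale, a difference of 0.56, but in TPM both values were above 0, at 0.06 and 0.91. ELK4 differed by 0.64 and USP28 by 0.59 in the same direction, and both lay between 1.89 and 3.35 FPKM. With centred ratios both values of ELK4 were below 0. IER3 differed by -0.20 and S100A4 by -0.17, both abundant and close to an even split in each genotype, and neither had opposite signs in TPM, with size factors or with centred ratios. Of all 10905 genes compared, 1338 (12.3%) had opposite signs, and 347 (3.18%) had them with a difference at least as far from 0 as that of FOS.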

How the results depend on the processing

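No paired analysis was possible within the 4 libraries used, which carry the same replicate number, 1 per condition. Among them there was no replicate block to fit and no replicate to leave out. The 10 members' median log2 polysome to sub-polysome ratio in WT-METTL3 cells, 0.33, was 0.67 with a minimum mean of 5 FPKM, which drops EGR1 and FOS, 0.46 in TPM and 0.18 with centred ratios. In K177Q-METTL3 cells, 0.49 became 0.36 with a pseudocount of 1 FPKM, 0.71 with the minimum of 5 FPKM, 0.91 in TPM, 0.38 with size factors and 0.33 with centred ratios. Relative to the all-gene median, the members' medians were 0.18 (WT-METTL3) and 0.33 (K177Q-METTL3) higher in the main values. In TPM these distances were 0.19 and 0.32, and with the minimum of 5 FPKM 0.45 and 0.51. In TPM the median translation efficiency ratio of the members was 0.35 beside 0.29 for all genes, and their median sub-polysome difference 0.00044 beside -0.21.

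Shares of all genes past a threshold were taken at 1.5-fold in the main values alone, so the counts here have none beside them. With a 2-fold threshold, the members higher in polysomes numbered 1 in WT-METTL3 and 2 in K177Q-METTL3 cells, and those lower 0 and 1. The members lower in WT-METTL3 polysomes numbered 1 with a pseudocount of 1 FPKM and 1 with the minimum of 5 FPKM, and those lower in K177Q-METTL3 polysomes 1 with that minimum and 1 in TPM. In translation efficiency, FOS passed 1.5-fold, making 1 member higher, with a pseudocount of 0.01 FPKM and in TPM. Between genotypes, the members at least 1.5-fold higher in polysomes numbered 1 with a pseudocount of 1 FPKM, 0 with the minimum of 5 FPKM and 0 at 2-fold, and in sub-polysomes 0 with that minimum and 0 at 2-fold. Higher counts were also found. In TPM, 5 members were higher in WT-METTL3 and 6 in K177Q-METTL3 polysomes and 3 higher in polysomes between genotypes. The all-gene medians of these ratios in TPM were themselves 0.28, 0.59 and 0.07, beside 0.14, 0.16 and -0.02 in FPKM. With size factors or centred ratios, 3 members were lower in K177Q-METTL3 polysomes. Of 204 values of the members between genotypes under the alternatives, 24 shifted on the log2 scale by at least 0.1, all but 4 of them in TPM. The sign turned in 8, all of values under 1.5-fold: in TPM the translation efficiency ratios of FOSL1, ATF3 and EGR1 and the sub-polysome values of FOS, ATF3, MYC and IER2, and with size factors the translation efficiency ratio of IER2 (-0.01). For 21 other named genes, 143 translation efficiency ratios were recomputed, and 6 turned sign, all in TPM. Of the 5 past 1.5-fold, ELK4 (0.46), USP28 (0.45) and ERBB3 (-0.55) were not with a pseudocount of 1 FPKM, BATF (-0.43) and ERBB3 (-0.43) not in TPM and USP28 (0.57) not with size factors. In TPM, METTL3 (0.78), NFE2L1 (0.72) and HNRNPD (0.61) also passed 1.5-fold. FOS, EGR1 and ATF3 were below 7 FPKM in every library, and the depth behind their values is unknown.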
